A study of Mus musculus with 72 samples.

Results

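Transcript levels were compared between the liver and the gastrocnemius muscle, the large calf muscle, of fed mice. The libraries were chosen by their labels alone: all 36 libraries of fed animals out of 72 in the series, 18 from liver and 18 from muscle. Every animal was a wild-type male C57BL/6J mouse, 8 weeks old, with free access to normal chow under 12 h of light and 12 h of dark. Tissue was taken at 6 zeitgeber times (ZT, hours after lights on), ZT0, ZT4, ZT8, ZT12, ZT16 and ZT20, with 3 libraries per tissue and time. Whether a liver and a muscle library came from the same animal is not stated in the labels, and p-values measure the spread between these libraries. RNA-seq values for whole genes, for exons alone and for introns alone were used, in FPKM, fragments per unit of transcript length and of sequencing depth.

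The liver secretes most plasma proteins, takes up and releases glucose, makes lipids, bile acids, urea and ketone bodies, and clears foreign compounds. The gastrocnemius is a mixed but mainly fast-twitch limb muscle, built of sarcomeres and fuelled by glycogen, phosphocreatine and mitochondrial oxidation. Many metabolic steps run in both tissues on different members of an enzyme family, so that the same reaction is catalysed by a liver and a muscle isozyme. Reads over exons come mostly from spliced, mature RNA and reads over introns from unspliced RNA. The ratio of exonic to intronic signal is widely used as a readout that also depends on how long the mature RNA lasts.

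Read depth, estimated from the low values, was 22 to 33.4 M reads in liver (median 26) and 18.8 to 28 M in muscle (median 23.8). The first principal component of the fed libraries held 94.8% of the variance and separated the tissues without overlap. The second held 1.37% and set the 3 liver libraries of ZT0 apart from the other liver libraries. Muscle ZT16 replicate 5 had the highest summed FPKM of the muscle libraries and the fewest muscle genes at 1 FPKM or more, 9853.

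Most libraries carried traces of the other tissue. Genes were called liver-only or muscle-only where they averaged at least 10 FPKM in their own tissue and stayed at or under 0.1 FPKM in the other, using liver of ZT0 and ZT4 and muscle of ZT16 and ZT20. By that choice 276 genes were liver-only and 204 muscle-only, and their near-zero level in the libraries that chose them is not a result. The other 12 muscle libraries, which the choice did not use, held the median liver-only gene at 0.0633% to 0.267% of its liver level (median 0.0835%). The other 12 liver libraries held the median muscle-only gene at 0.0582% to 0.193% of its muscle level (median 0.0984%). Fgg, the fibrinogen gamma chain, averaged 2603 ± 121 FPKM in liver of ZT0 and ZT4 (SD, n = 6). It was between 0 and 0.0629 FPKM in muscle of ZT16 and ZT20 and between 8.82 and 17.7 FPKM in every other muscle library. Relative to its liver level, this is above the trace of the median liver-only gene. Serpina1d, at 1857 FPKM in the same liver libraries, had a median of 1.05 FPKM in those other muscle libraries, against 12.1 for Fgg. How these traces arose was not tested. The 6 liver libraries of ZT0 and ZT4 and the 6 muscle libraries of ZT16 and ZT20 are called the reference libraries. Most single-gene differences are given over all libraries only. For Alb, Acta1, Ckm and some lists and counts, the difference between reference libraries is given beside that over all libraries. It also compares different times of day. Among the medians of 11 liver and 7 muscle lists, it was smaller for bile acid (6.88 against 7.07 log2) and hepatic glucose genes (6.33 against 6.62 log2). It was slightly smaller for apolipoprotein (8.86 against 8.87 log2) and lipogenesis genes (3.23 against 3.26 log2). The other lists had a larger difference, such as fast sarcomere genes (-12.01 against -9.90 log2) and hepatocyte markers (10.43 against 9.39 log2). Among the members of these lists, 10 of 16 fast sarcomere genes are muscle-only, and 10 of 17 bile acid and 6 of 16 glucose genes are liver-only. The low values of tissue-only genes in these libraries were part of that choice, so larger differences of lists that hold them are no separate result.

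**Figure D1:**
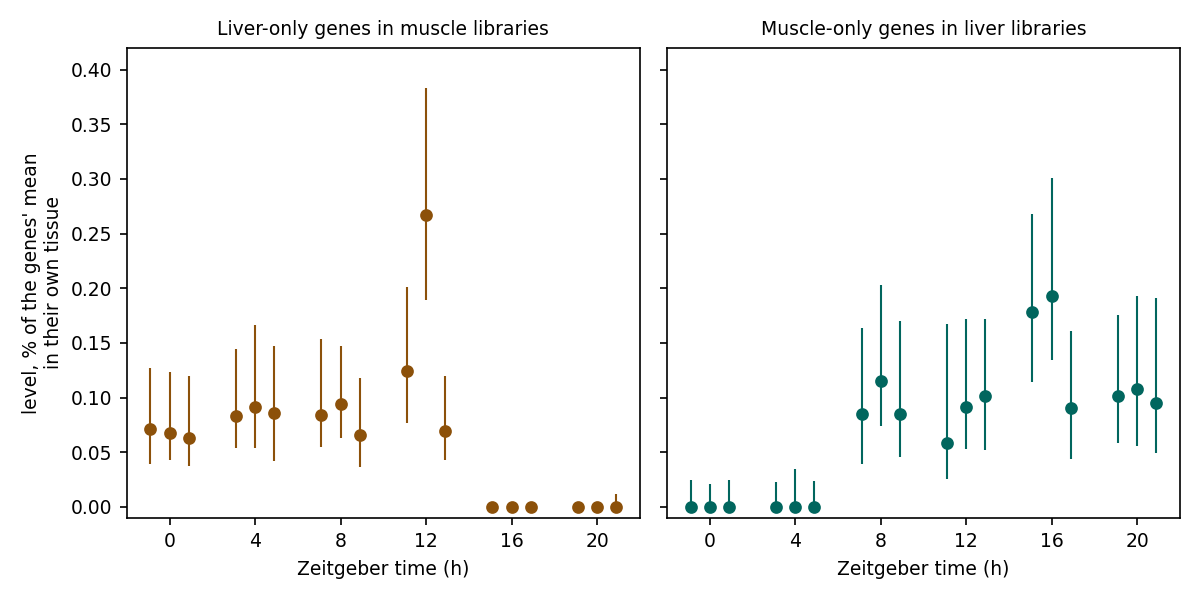
Median level of the 276 liver-only genes in each muscle library and of the 204 muscle-only genes in each liver library, as percent of their level in their own tissue, by zeitgeber time (h). Points are the median gene of a library and lines run from the lower to the upper quartile over genes. Medians are 0 at the times that chose the genes and lie between 0.0582% and 0.267% in all other libraries.

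Liver and muscle differed in most of the transcriptome. Tested were 12304 genes that reached 1 FPKM in 3 or more fed libraries. Of these, 5186 (42.1%) were higher in liver and 6188 (50.3%) higher in muscle. The test was limma on log2(FPKM + 0.5), on the mean of the 6 times, with Benjamini-Hochberg adjusted p under 0.05. At least 2-fold differences were found in 2771 genes toward liver (22.5%) and 3203 toward muscle (26%). At least 16-fold differences were found in 671 genes toward liver and 471 toward muscle, and at least 1000-fold differences in 26 and 14. The 0.5 FPKM added before taking logs compresses differences of genes near 0 in 1 tissue. For example, Hnf4a averaged 126.8 FPKM in liver and 0.085 FPKM in muscle, with a difference of 7.77 log2 on this scale. The fold counts therefore miss genes whose plain FPKM ratio is larger. The sign was the same at all 6 times in 9906 of the 11374 genes called. At the other end, the 95% interval of the difference lay within 0.5 log2 of 0 for 2780 genes (22.6%). The median difference over all genes was -0.13 log2 (liver minus muscle), 0.02 after median-of-ratios scaling and -0.41 after scaling to the same summed FPKM, so differences of this size depend on the scale. In bulk tissue, fewer cells of a type and less RNA per cell cannot be told apart.

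**Figure D2:**
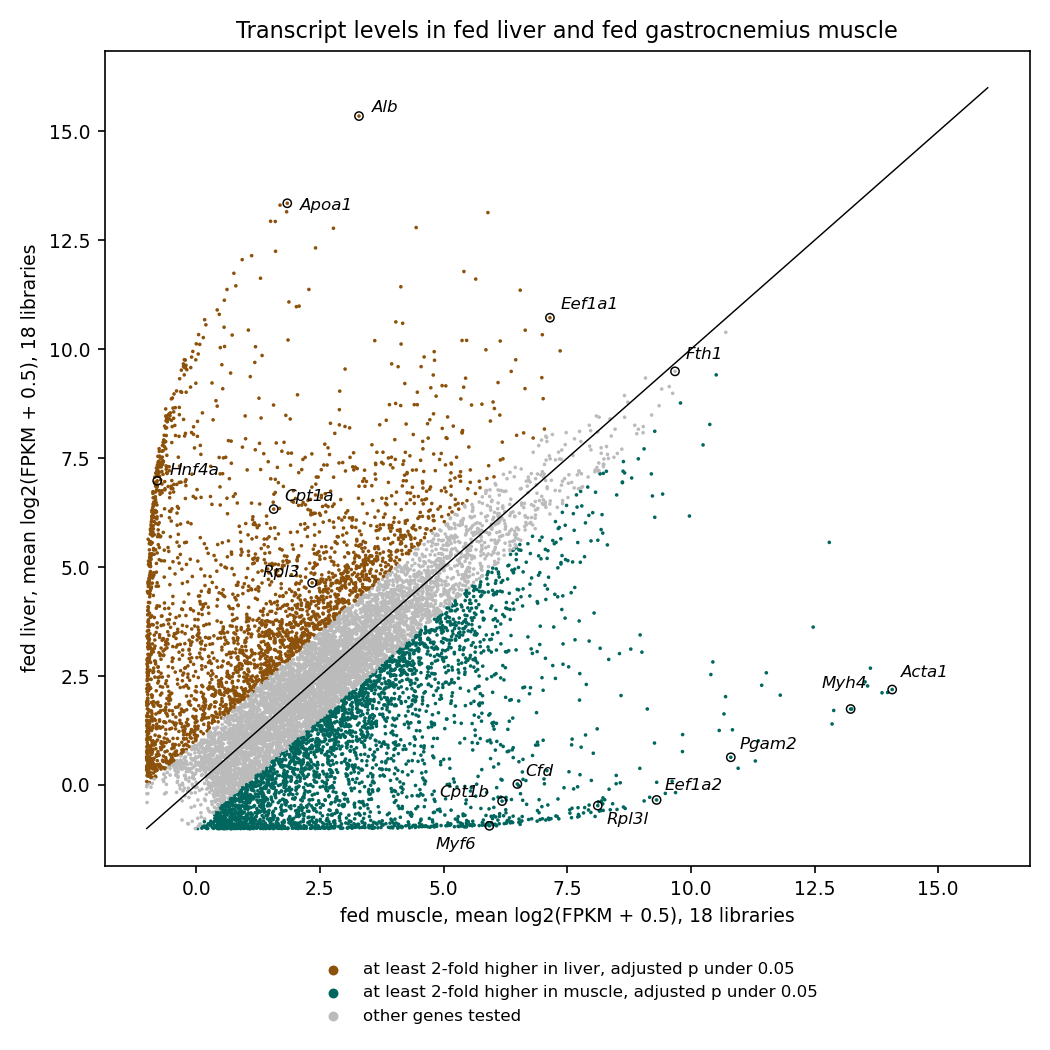
Mean log2(FPKM + 0.5) of 12304 genes in fed liver (vertical axis) against fed muscle (horizontal axis), 18 libraries each. Colours mark the 2771 genes at least 2-fold higher in liver and the 3203 at least 2-fold higher in muscle, circles mark genes named in the text, and the line marks equal levels.

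Muscle put more of its transcript mass into fewer genes, yet more genes reached 1 FPKM there. The 10 most abundant genes held 25.5 ± 0.879% of the summed FPKM in liver (23.7% to 26.8%, n = 18) and 32.5 ± 1.499% in muscle (29.9% to 35.8%, n = 18), and the tissues did not overlap. The difference was -6.93 percentage points (two-sided permutation test with 100000 resamples, p = 2e-05, the smallest these can give). The number of genes behind that mass differed too: 83.6 ± 7.73 genes held 50% of the summed FPKM in liver and 57.6 ± 12.1 in muscle. Liver libraries had 9841 ± 159 genes at 1 FPKM or more (9482 to 10208) and muscle libraries 10376 ± 200 (9853 to 10702), with the same permutation p. In the 6 liver and 6 muscle reference libraries the 2 differences were -7.08 percentage points and -614.2 genes (exact permutation p = 0.0022 and 0.0087).

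Albumin led the liver transcriptome and skeletal alpha-actin that of muscle. Alb (chr5:90460897-90476602, mm10), the main carrier protein of plasma, held 9.14 ± 1.12% of the summed FPKM of liver. Its level ran from 33480 to 51317 FPKM in liver (median 41733) and from 0.0212 to 122.5 FPKM in muscle (median 24.2). Every liver library was far above every muscle library, by 12.06 ± 0.15 log2 on average (estimate ± SE, limma, adjusted p = 9.67e-34) and by 15.57 log2 between reference libraries. Acta1 (chr8:123891769-123894751, minus strand), the actin of the thin filament, held 4.66 ± 0.264% of muscle. It ran from 15029 to 22102 FPKM in muscle (median 17198) and from 0.0202 to 29.3 FPKM in liver (median 9.62). The tissues again stood far apart, by -11.88 ± 0.088 log2 (adjusted p = 5.03e-40) and by -14.96 log2 between reference libraries. After Alb, the liver genes of highest share were Apoa1 (2.29 ± 0.301%), the main protein of high-density lipoprotein, Mup20 (2.24 ± 0.406%), a urinary pheromone carrier, Serpina3k (1.99 ± 0.244%), a protease inhibitor, and Apoe (1.98 ± 0.391%), a ligand for lipoprotein receptors. After Acta1, the muscle genes were Ckm (4.37 ± 0.196%), creatine kinase, the fast troponin subunits Tnnt3 (4.04 ± 0.231%), Tnnc2 (3.45 ± 0.469%) and Tnni2 (3.32 ± 0.420%), Mylpf (3.19 ± 0.230%), a fast myosin light chain, and Pvalb (2.65 ± 0.251%), a calcium buffer.

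The promoters of Alb, Acta1, Mylpf and Pgam2, the muscle phosphoglycerate mutase, are shown because short motifs known from tissue-restricted promoters occur in them at different rates in the 2 sets of most different genes. Each line gives the 120 bases before the RefSeq transcript start, 5′ to 3′ on the gene's strand, from RefSeq on GRCm38.p6. Gene positions in the text come from a different annotation, GENCODE. The windows of Alb, Acta1 and Pgam2 therefore end some bases upstream of the gene starts given in the text. Capitals mark matches to the searched motifs, on either strand.
Alb, chr5:90460750-90460869, plus strand: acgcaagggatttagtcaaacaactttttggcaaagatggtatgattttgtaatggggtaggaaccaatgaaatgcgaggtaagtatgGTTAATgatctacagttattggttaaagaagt
Acta1, chr8:123894776-123894895, minus strand: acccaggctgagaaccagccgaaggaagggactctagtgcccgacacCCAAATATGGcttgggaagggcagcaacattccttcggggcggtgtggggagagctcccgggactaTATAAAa
Mylpf, chr7:127211488-127211607, plus strand: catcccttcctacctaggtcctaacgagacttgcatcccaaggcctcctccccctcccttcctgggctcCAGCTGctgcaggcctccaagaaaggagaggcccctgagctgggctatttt
Pgam2, chr11:5803797-5803916, minus strand: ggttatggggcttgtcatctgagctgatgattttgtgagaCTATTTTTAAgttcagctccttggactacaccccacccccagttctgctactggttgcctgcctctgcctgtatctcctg

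In Alb the capitals are GTTAAT, the core of the site of hepatocyte nuclear factor 1, in Mylpf CAGCTG, an E-box as bound by myogenic factors, in Acta1 a CArG box, the site of serum response factor, followed by TATAAA, and in Pgam2 a MEF2 site. Over 250 bases upstream, GTTAAT was present in 14.7% of 606 promoters of genes at least 16-fold higher in liver, 3.47% of 461 promoters of genes at least 16-fold higher in muscle, 4.37% of 11888 promoters of the genes tested and 6.43% of all 32851 promoters. CAGCTG was present in 12.4%, 23.4%, 12.3% and 13% of the same sets in the same order. The MEF2 motif was present in 0.99%, 8.89%, 1.33% and 1.69%, and the CArG box in 1.49%, 3.69%, 1.18% and 1.47%. TATAAA was present in 10.2%, 8.03%, 4.19% and 7.59%, so both sets were above the genes tested. The motifs were searched on both strands and overlaps between motifs were kept. A match describes letters in a window and not a bound site. The 120 bases of Apoa1, Ckm and Eno3 held none of these motifs.

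The secreted proteins of the liver showed the largest share of transcript mass of any list in that tissue. All 28 tested plasma carrier and acute phase genes were higher in liver, with a median difference of 8.45 log2 against -0.13 over all genes. They summed to 18.8 ± 1.66% of liver FPKM and 0.0308 ± 0.0148% of muscle FPKM. All 19 apolipoprotein and lipoprotein assembly genes were higher in liver (median 8.87 log2), with 8.06 ± 0.776% of liver FPKM. Of 34 complement and coagulation genes 33 were higher in liver (median 8.16 log2), led by the fibrinogen chain Fgb at 10.75 log2. The exception was Cfd, complement factor D or adipsin, a protease secreted by fat cells. Cfd ran from 0.205 to 1.16 FPKM in liver and from 30.6 to 464.3 FPKM in muscle (median 68.8), a difference of -6.47 ± 0.24 log2 (adjusted p = 3.83e-21). Cfd is itself one of the 8 adipocyte markers. Of these 5, Adipoq, Cfd, Retn, Cidec and Fabp4, had their highest muscle value in the same library, ZT20 replicate 5. Plin1 and Lep had theirs in ZT0 replicate 5 and Plin4 in ZT12 replicate 5. The part of fat cells in this difference was not tested.

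Liver metabolism genes were higher in liver nearly throughout. This held for 24 of 25 urea cycle and amino acid catabolism genes (median 7.76 log2), 34 of 34 drug metabolism genes (7.98 log2), 17 of 17 bile acid genes (7.07 log2), 26 of 27 lipogenesis and cholesterol genes (3.26 log2) and 18 of 19 ketogenesis and peroxisome genes (2.78 log2). Cps1, the first enzyme of the urea cycle, ran from 759.2 to 1064 FPKM in liver and from 0 to 2.38 FPKM in muscle, a difference of 9.91 ± 0.075 log2. Cyp2d9, a cytochrome P450, differed by 9.86 ± 0.097 log2 and Slc10a1, the bile acid importer of the hepatocyte, by 8.71 ± 0.079 log2. Among lipogenic genes Scd1, the desaturase that makes oleate, ran from 2003 to 5260 FPKM in liver and from 21.3 to 229.5 FPKM in muscle, a difference of 5.96 ± 0.24 log2. The urea cycle gene Ass1 was listed at 0 in most libraries of both tissues and was not tested. Its coding sequence has near-identical pseudogenes, and whether the authors' counting split its reads was not tested.

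A few members went against their list. Got1, cytosolic aspartate aminotransferase, ran from 50.4 to 290.5 FPKM in liver and from 99.9 to 202.4 FPKM in muscle, overlapping ranges with a mean difference of -0.60 ± 0.11 log2 (adjusted p = 5.41e-06). Acacb, the mitochondrial acetyl-CoA carboxylase whose product holds back fatty acid entry, differed by -0.73 ± 0.092 log2. Of 16 gluconeogenesis and hepatic glucose genes 14 were higher in liver (median 6.62 log2). The other 2 were Pfkfb1 (-0.48 log2), which sets fructose 2,6-bisphosphate, and Ppp1r3c (-2.11 ± 0.13 log2), which targets a phosphatase to glycogen. Ppp1r3c ran from 8.00 to 89.8 FPKM in liver and from 35 to 213 FPKM in muscle, so single libraries overlapped.

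Of 25 liver transcription factors 22 were higher in liver (median 3.65 log2). Hnf4a, a nuclear receptor that maintains hepatocyte identity, ran from 98.7 to 150.8 FPKM in liver and from 0 to 0.377 FPKM in muscle, a difference of 7.77 ± 0.051 log2 (adjusted p = 2.72e-41). Creb3l3, a membrane-bound factor of lipid metabolism, differed by 7.40 ± 0.039 log2 and Nr1h4, the bile acid receptor, by 6.42 ± 0.044 log2. All 3 were at most 0.377 FPKM in every muscle library, and their liver levels were far below those of the secreted proteins. The 3 factors higher in muscle were Esrra (-1.67 ± 0.052 log2), a receptor tied to mitochondrial genes, Rora (-0.90 log2) and Nfib (-0.66 log2).

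The contractile apparatus dominated muscle. All 16 fast sarcomere genes were higher in muscle (median -9.90 log2) and summed to 27.2 ± 1.25% of muscle FPKM and 0.0191 ± 0.0137% of liver FPKM. All 10 tested slow sarcomere genes were higher in muscle too (median -6.71 log2), but summed to 0.384 ± 0.101% of muscle FPKM. Among the adult myosin heavy chains the fast glycolytic Myh4 (type 2B) ran from 7343 to 11530 FPKM in muscle with a median of 9784. Myh1 (type 2X) ran from 364.4 to 844 FPKM with a median of 568.2. Myh2 (type 2A) ran from 112.9 to 561 FPKM with a median of 386. Myh7 (slow type 1) ran from 4.40 to 104.9 FPKM with a median of 51.3. The ranges of Myh4 and Myh1 did not overlap each other, those of Myh1 and Myh2 did, and Myh7 lay below all 18 values of Myh2. Myh1, Myh2 and Myh7 were named after their values were seen. These genes are close relatives, and no source used here says how reads shared between them were counted.

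The rest of the muscle machinery followed. All 33 sarcomere scaffold and costamere genes were higher in muscle (median -6.71 log2), led by Tcap, the titin cap, at -10.75 ± 0.096 log2. Of 24 excitation-contraction coupling and calcium genes 23 were higher in muscle (median -7.47 log2), including the calcium pump Atp2a1 (-11.18 ± 0.065 log2), the calcium store Casq1 (-9.57 ± 0.042 log2) and the release channel Ryr1 (-8.52 ± 0.079 log2). The remaining member, Atp2a2, the pump of slow muscle and of most other cells, ran from 23.1 to 46.0 FPKM in liver and from 14.9 to 66.9 FPKM in muscle and did not pass (-0.24 log2, adjusted p = 0.0509). After quantile normalisation, or scaling to the same summed FPKM, all 24 passed toward muscle. All 25 genes of muscle energy buffering and glucose use were higher in muscle (median -7.49 log2) and summed to 11.1 ± 0.296% of muscle FPKM. Ckm ran from 14817 to 20012 FPKM in muscle and from 0 to 28.5 FPKM in liver, a difference of -11.85 ± 0.083 log2 and of -14.91 log2 between reference libraries. Of 11 neuromuscular junction genes 9 were higher in muscle, led by Rapsn (-4.66 ± 0.039 log2), which clusters acetylcholine receptors. Agrn, the nerve-derived organiser of the synapse (0.67 ± 0.058 log2), and its receptor Lrp4 (0.60 log2) were higher in liver.

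All 27 tested muscle transcription factors and regulators were higher in muscle (median -3.45 log2). Myf6, a myogenic factor of adult fibres, ran from 49.3 to 74.2 FPKM in muscle and from 0 to 0.127 FPKM in liver, a difference of -6.86 ± 0.035 log2 (adjusted p = 1.27e-43). Tbx15, a T-box factor of fast fibres, differed by -7.12 ± 0.031 log2 and Mef2c by -6.76 ± 0.062 log2. Smpx, a small protein of the costamere, differed most in this list at -8.37 ± 0.051 log2. Between the reference libraries, the counts higher in muscle were 16 of 16 fast sarcomere, 10 of 10 slow sarcomere, 32 of 33 scaffold, 23 of 24 excitation-contraction, 25 of 25 energy, 9 of 11 neuromuscular junction and 26 of 27 regulator genes. The same libraries gave 18 of 18 hepatocyte markers, 28 of 28 plasma proteins and 33 of 34 complement and coagulation genes higher in liver. These lists hold tissue-only genes, such as 10 fast sarcomere, 7 slow sarcomere and 21 complement and coagulation genes. Those genes were chosen for low values in these same libraries, so their part of the counts is no separate result.

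**Figure D3:**
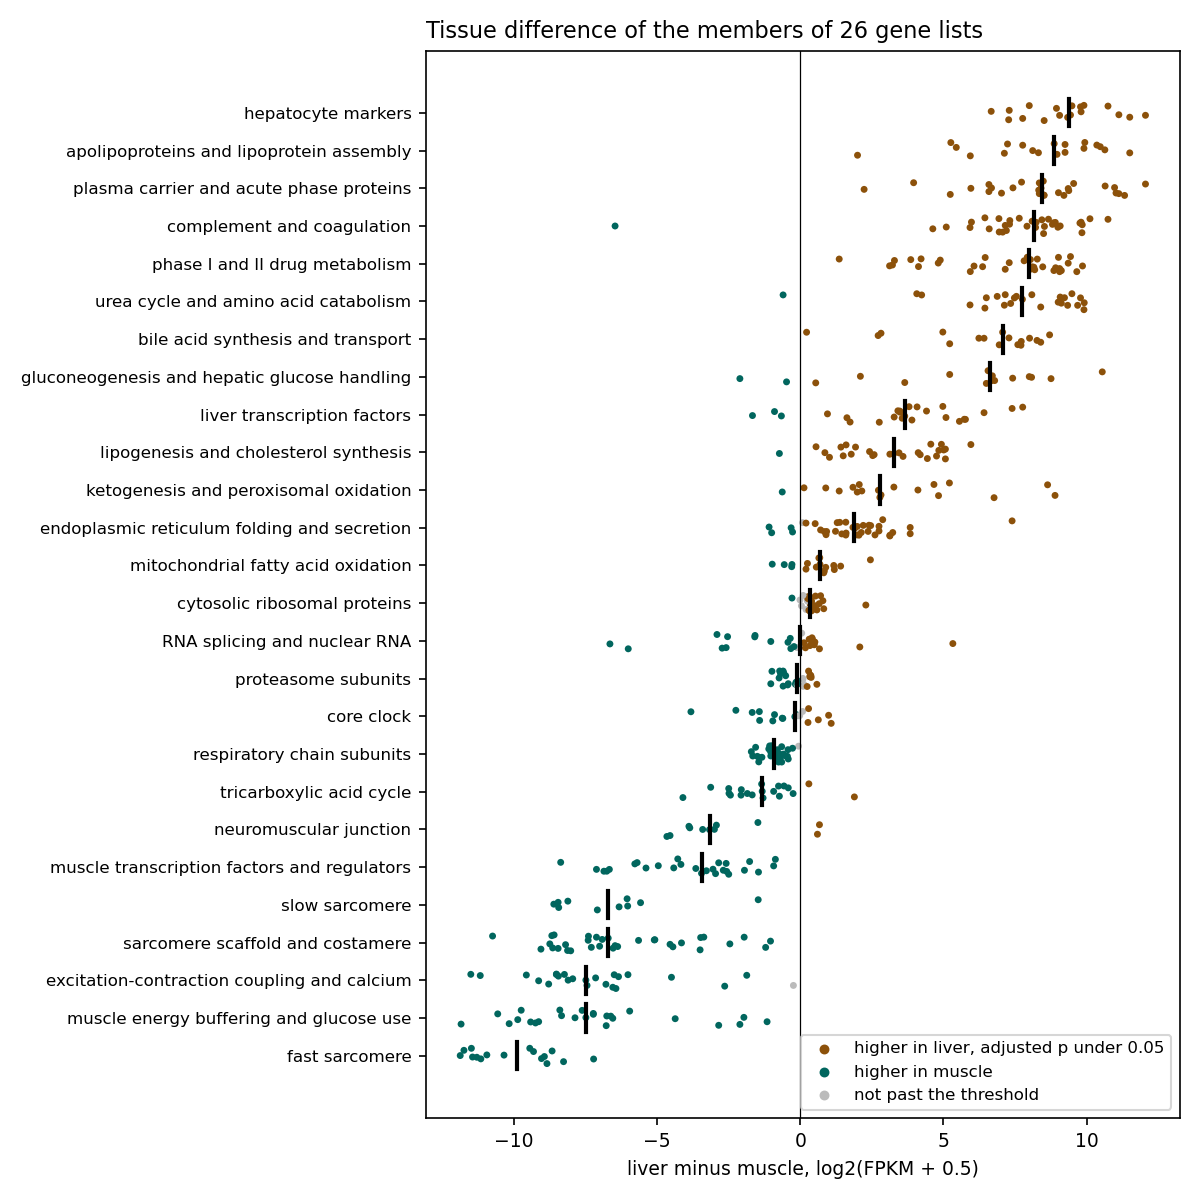
Liver minus muscle difference of each tested gene in 26 lists of genes by role, in log2(FPKM + 0.5). Points are genes, bars are list medians, and the vertical line marks no difference. Liver lists lie to the right, muscle lists to the left, and the lists shared by both tissues lie near the line.

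Mitochondrial genes split by pathway. Of 30 respiratory chain subunits 29 were higher in muscle, with a median of -0.93 log2, and 12 passed 2-fold. Over all genes tested, 50.3% were higher in muscle and 26% at least 2-fold so. The scale moved the 2-fold count of the subunits, to 7 after median-of-ratios scaling (median -0.75 log2), 21 after scaling to the same summed FPKM (-1.24) and 28 after quantile normalisation (-1.59). The 7 of 30 are not above the 26% of all genes, a share taken without that scaling. The summed subunits took 1.25 ± 0.0659% of liver FPKM and 2.94 ± 0.256% of muscle FPKM. Ndufs1, a complex I subunit, ran from 37.9 to 52.0 FPKM in liver and from 130.6 to 173 FPKM in muscle, a difference of -1.71 ± 0.037 log2. Of 20 tricarboxylic acid cycle genes 18 were higher in muscle (median -1.34 log2). Idh3a, the catalytic subunit of the NAD-dependent isocitrate dehydrogenase, differed most, with 9.12 to 23.1 FPKM in liver and 233.7 to 295.8 FPKM in muscle (-4.10 ± 0.050 log2). Suclg2, the GTP-forming subunit of succinyl-CoA ligase, went the other way with 46.8 to 62.6 FPKM in liver and 12.5 to 16.6 FPKM in muscle (1.89 ± 0.037 log2). Its ATP-forming counterpart Sucla2 was higher in muscle (-1.85 log2), and Mdh1 was the other gene higher in liver (0.30 log2).

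Fatty acid oxidation went toward liver in more genes than toward muscle. Of 17 mitochondrial fatty acid oxidation genes 13 were higher in liver and 4 in muscle (median 0.68 log2), against 42.1% and 50.3% of all genes tested. At least 2-fold higher in liver were 4 of the 17, near the share of all genes tested (22.5%). Acaa2, the last thiolase of the spiral, ran from 468.6 to 629 FPKM in liver and from 58.2 to 154.7 FPKM in muscle (2.45 ± 0.073 log2). The 4 genes higher in muscle were Hadhb (-0.98 ± 0.058 log2) and Hadha (-0.30 log2), the subunits of the trifunctional protein, and the dehydrogenases Acadl (-0.56 log2) and Acadm (-0.29 log2). After quantile normalisation the split was 10 to 6 with a median of 0.20 log2, and after scaling to the same summed FPKM it was 11 to 5. After quantile normalisation 1 gene was at least 2-fold higher in liver and 2 in muscle.

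Many metabolic steps were served by different isozymes in the 2 tissues. Of 31 listed pairs 30 were tested, and in 25 the first member was higher in liver and the second in muscle. The second member was higher in muscle in all 30 tested pairs. Over all genes tested, 42.1% were higher in liver and 50.3% in muscle. The pairs were listed as a liver and a muscle member with earlier results of these data known, so these counts only describe them. The second member held over 90% of the summed FPKM of its pair in muscle in 26 pairs, and under 10% in liver in 24. In carnitine palmitoyltransferase 1, which admits fatty acids to mitochondria, Cpt1b made up 0.394 ± 0.378% of the pair in liver and 96.6 ± 0.798% in muscle (SD, n = 18 each). Its liver counterpart Cpt1a was higher in liver (4.76 log2).

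The same held for glycogen phosphorylase (Pygm 3.24 ± 2.34% in liver, 99.92 ± 0.0440% in muscle), glycogen synthase (Gys1 1.00 ± 0.460% and 99.8 ± 0.138%), pyruvate kinase (Pkm 3.39 ± 1.93% and 99.99 ± 0.0120%) and glucose transporters (Slc2a4 0.714 ± 0.530% and 99.9 ± 0.101%). Subunits of cytochrome c oxidase switched as well, with Cox6a2 at 0.199 ± 0.144% and 96.8 ± 0.648% and Cox8b at 0.191 ± 0.178% and 95.5 ± 0.851%. For the muscle isozymes, the liver share includes the traces described above.

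Other pairs were less divided. Pfkm, the muscle phosphofructokinase, still made up 40.2 ± 4.54% of the pair with Pfkl in liver, at a summed level of 16.6 FPKM against 1397 FPKM in muscle. Acacb made up 67.1 ± 8.32% of acetyl-CoA carboxylase in liver and 95.5 ± 2.19% in muscle. Prkaa2, a catalytic subunit of AMP kinase, made up 80.4 ± 5.22% in liver and 92.2 ± 0.854% in muscle, and both it and Prkaa1 were higher in muscle. Both members were also higher in muscle for sodium pump beta and for caveolin. The first member of a pair did not pass for Cox7a2 (0.09 log2, adjusted p = 0.27) and Atp2a2. Enolase could not be tested as a pair, since Eno1 was at 0.835 FPKM or less in every library. Reads of Eno1 are shared with near-identical pseudogenes, and whether the authors' counting split them was not tested.

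**Figure D4:**
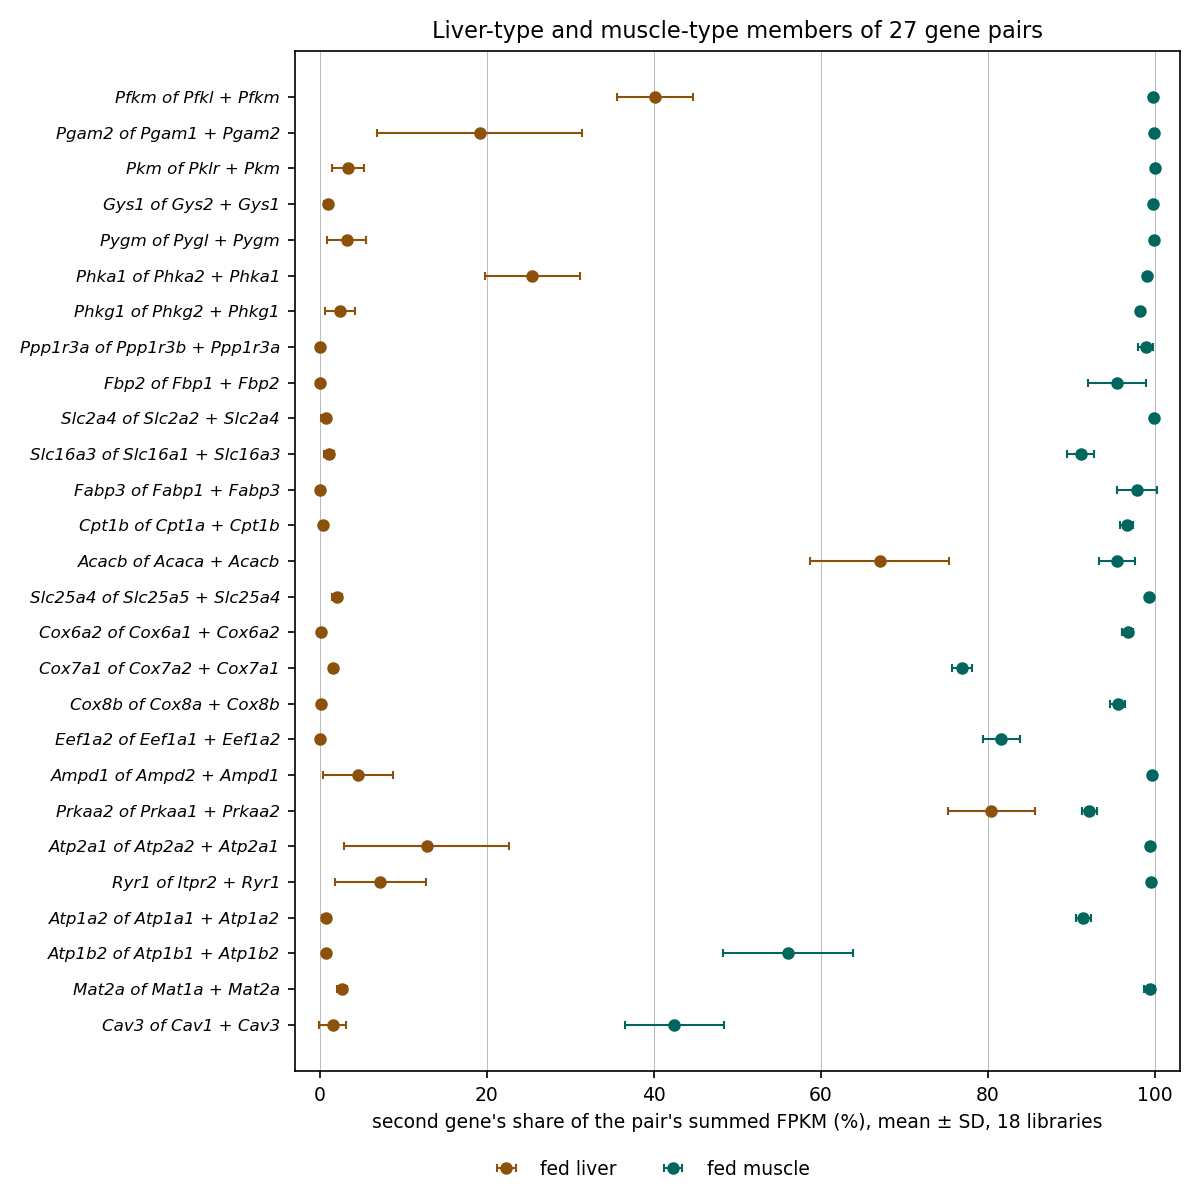
Share of the second (muscle) member in the summed FPKM of 27 of the 30 tested pairs, in percent, in liver and in muscle. Points are means of 18 libraries and bars are SD. In 23 of these pairs the muscle share is over 90% and in 21 the liver share is under 10%, with acetyl-CoA carboxylase, AMP kinase and phosphofructokinase the highest in liver.

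In translation, 2 pairs of paralogues were divided in the same way. Eef1a1, which brings aminoacyl-tRNA to the ribosome, ran from 1414 to 1925 FPKM in liver and from 113.2 to 182.9 FPKM in muscle. Its paralogue Eef1a2 ran from 0 to 0.932 FPKM in liver and from 582.4 to 726.9 FPKM in muscle, and made up 81.6 ± 2.24% of the pair there. The ribosomal protein gene Rpl3 ran from 18.9 to 31.8 FPKM in liver and from 3.26 to 6.64 FPKM in muscle, a difference of 2.29 ± 0.069 log2. Rpl3l, its striated muscle paralogue, ran from 0 to 0.639 FPKM in liver and from 239.9 to 406.6 FPKM in muscle (-8.59 ± 0.061 log2). Rpl3l was named after its values were seen. Apart from Rpl3, the ribosomal proteins differed by less than 2-fold: of 28 tested, 22 were higher in liver, 1 (Rplp0) in muscle and 5 did not pass (median 0.35 log2). This direction depends on the scale, as quantile normalisation gave 11 genes higher in liver and 10 in muscle and scaling to the same summed FPKM gave 8 and 4. Ribosomal protein genes have many processed pseudogenes, and the levels of single genes are uncertain.

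Protein handling differed by compartment. Of 38 endoplasmic reticulum folding and secretion genes 33 were higher in liver (median 1.87 log2), 27 of them at least 2-fold. Pdia4, a protein disulfide isomerase, ran from 51.6 to 136.3 FPKM in liver and from 4.12 to 7.63 FPKM in muscle (3.84 ± 0.061 log2). Sar1b, the small GTPase of vesicles that leave the reticulum, was higher in muscle, with 120.7 to 171.5 FPKM in liver and 285.7 to 424 FPKM in muscle (-1.09 ± 0.047 log2). The 27 proteasome subunits stayed close, with 7 higher in liver, 15 in muscle and a median of -0.11 log2. Of these, only Psma3 passed 2-fold (-1.03 ± 0.052 log2). The proteasome split was 11 to 11 after median-of-ratios scaling and 1 to 25 after quantile normalisation, so its direction depends on the scale.

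Some abundant genes were at nearly the same level. The 5 of highest mean level whose 95% interval lay within 0.5 log2 of 0 were Fth1, ferritin heavy chain (-0.19 ± 0.069 log2), Atp5g3, a subunit of the ATP synthase rotor (-0.32 ± 0.071), Rplp1, a ribosomal stalk protein (0.26 ± 0.073), Eef2, the translocation factor (0.28 ± 0.042), and Uqcrq, a complex III subunit (0.06 ± 0.086). Fth1 ran from 571.7 to 929.2 FPKM in liver and from 705.9 to 1367 FPKM in muscle. The ranges of both tissues overlapped for all 5 genes, and the sign of Rplp1, Eef2 and Uqcrq flipped under quantile normalisation and under scaling to the same summed FPKM.

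Of 29 tested splicing and nuclear RNA genes 12 were higher in liver and 13 in muscle (median -0.01 log2). The split was 15 to 12 after median-of-ratios scaling, 7 to 15 after quantile normalisation and 6 to 19 after scaling to the same summed FPKM, so it depends on the scale. A few regulators were nearly tissue-restricted. Rbm24, a muscle splicing regulator, ran from 39.9 to 60.7 FPKM in muscle and from 0 to 0.0845 FPKM in liver (-6.65 ± 0.035 log2). Rbfox1, another muscle and brain splicing factor, differed by -6.01 ± 0.040 log2. Esrp2, an epithelial splicing regulator, ran from 16.6 to 25.2 FPKM in liver and from 0 to 0.0783 FPKM in muscle (5.33 ± 0.031 log2). Neat1, the RNA scaffold of nuclear paraspeckles, ran from 2.10 to 19.0 FPKM in liver and from 29.8 to 66.9 FPKM in muscle (-2.91 ± 0.14 log2).

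Markers of other cell types separated the tissues too. Of 12 pan-endothelial markers 11 were higher in muscle (median -1.74 log2), with Pecam1 at 2.42 to 6.01 FPKM in liver and 15.6 to 28.2 FPKM in muscle. The summed level of the list ran from 34.0 to 74.1 FPKM in liver and from 115.9 to 183.7 FPKM in muscle. Markers of liver sinusoidal endothelium went the other way: 7 of 8 were higher in liver (median 2.64 log2), with Clec4g at 18.2 to 43.7 FPKM in liver and at most 0.107 FPKM in muscle. Of 14 macrophage and Kupffer markers 12 were higher in liver (median 0.88 log2). Cd5l and Clec4f, markers of the resident liver macrophage, were at 10.7 to 58.6 and 14.7 to 51.1 FPKM in liver and at most 0.0216 and 0.0550 FPKM in muscle. Lyz2, a general macrophage lysozyme, was higher in muscle (-0.72 ± 0.099 log2). Among 12 stellate cell and fibroblast markers 9 were higher in muscle, such as Col1a1 (-4.56 ± 0.13 log2), a fibrillar collagen, and 3 in liver, such as Lrat (2.65 ± 0.098 log2), which stores vitamin A in stellate cells. The list includes Des (-8.68 log2), which is also the intermediate filament of muscle fibres.

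Fat and nerve markers were present in muscle at levels that varied widely between libraries. All 8 adipocyte markers were higher in muscle (median -4.51 log2), and their summed level ran from 228.7 to 1237 FPKM there and from 9.04 to 19.6 FPKM in liver. Adipoq, the fat cell hormone adiponectin, ran from 6.17 to 74.0 FPKM in muscle (median 9.86) and reached 0.101 FPKM at most in liver. All 7 Schwann cell and nerve markers were higher in muscle (median -3.53 log2), and their sum ran from 59.5 to 376.8 FPKM in muscle and from 1.28 to 2.82 FPKM in liver. In liver, 5 of 5 tested cholangiocyte markers were higher, led by Spp1 (3.36 ± 0.22 log2), and Cela1, listed as a pancreas acinar marker, ran from 8.21 to 22.04 FPKM. The acinar markers Cpa1, Prss2, Pnlip and Ctrb1 did not reach the minimum for testing, and 2 of the 6 acinar genes in the table were at 0 in every liver library. The remaining marker lists had 1 or 2 tested genes each for satellite cells, erythroid cells, lymphocytes and neutrophils, with 6 smooth muscle and pericyte genes all higher in muscle (median -2.94 log2). The part of these cells in the differences of other genes was not tested.

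Exonic and intronic signal were then compared, since each table is a separate measurement over different parts of the gene. Of 11952 genes tested in exons, 4655 (38.9%) were higher in liver and 6444 (53.9%) in muscle, 2549 (21.3%) and 3474 (29.1%) at least 2-fold. Of 10186 genes tested in introns, 3823 (37.5%) were higher in liver and 4453 (43.7%) in muscle, 1897 (18.6%) and 2125 (20.9%) at least 2-fold. Each table is taken as scaled to its own total. Intronic signal is sparser, and the 0.5 FPKM added before taking logs compresses differences of low values.

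Among genes chosen by the size of their exonic difference, introns followed exons in direction but differed less. Choosing on exons favours the larger value in exons, and no choice by introns was made. Among genes tested in both, 2177 were at least 2-fold higher in liver exons, and 1955 of these (89.8%) were also called higher in liver introns and 78 lower. Among 2509 genes at least 2-fold higher in muscle exons, 2212 (88.2%) were called in the same direction in introns and 95 in the opposite. At 16-fold or more the same direction was called in introns for 627 of 630 liver genes (99.5%) and 432 of 435 muscle genes (99.3%). The median difference of those genes was 6.30 log2 in exons and 3.95 in introns toward liver, and -5.87 and -3.77 toward muscle. The median over all genes was -0.25 log2 in exons and -0.07 in introns.

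Introns of the most tissue-restricted genes were themselves abundant in their tissue. Acta1 introns ran from 320.6 to 759.9 FPKM in muscle and from 0 to 0.913 FPKM in liver (-9.67 ± 0.11 log2, against -12.05 ± 0.085 in exons). Introns of Myl1, a fast myosin light chain, differed by -9.55 ± 0.091 log2 and those of Tnnt3 by -9.31 ± 0.11 log2. Toward liver, introns of Mup3, another urinary pheromone carrier, differed by 10.31 ± 0.12 log2 and those of Apoa1 by 9.80 ± 0.16 log2. The largest intronic difference was that of Apon, an apolipoprotein gene, with 1069 to 8234 FPKM in liver introns and 0 to 12.3 FPKM in muscle introns (11.50 ± 0.39 log2). Its introns stood above its exons, which ran from 160.4 to 289.3 FPKM in liver. Mean intronic signal was also above mean exonic signal in liver for the pseudogenes Cyp2d37-ps (931 against 45.2 FPKM) and Serpina4-ps1 (1229 against 156.2 FPKM). In muscle it was so for Ppp1r27, a phosphatase regulator (505.4 against 165.4 FPKM).

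The ratio of exonic to intronic signal differed between tissues for most genes. Tested were 6162 genes that reached 1 FPKM in 3 or more libraries of each tissue in both tables. The ratio was higher in liver for 2216 (36%) and higher in muscle for 2515 (40.8%), and at least 2-fold so for 726 (11.8%) and 749 (12.2%). The ratio was centred on the median of each library, which ran from 1.23 to 1.53 log2 over the 36 libraries. In the reference libraries the counts were 1450 and 1638 of 5352 genes.

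Among the genes of tissue lists that could be tested, most had a higher ratio in the tissue of their list. The 11 liver lists held 246 genes, of which 77 could be tested, and the ratio was higher in liver for 53 and higher in muscle for 10 (median 1.12 log2, against -0.05 over all genes). The 7 muscle lists held 150 genes, of which 32 could be tested, and the ratio was higher in muscle for 29 and higher in liver for 1 (median -2.16 log2). Most restricted genes could not be tested because their exons, their introns or both did not reach the minimum in both tissues. How many failed on each was not counted. The part of traces in the genes that did enter was not tested. Because this filter asks for intronic signal in the other tissue, it can itself favour a low ratio there. How much of the direction comes from the filter was not tested. In the reference libraries 37 of 65 liver-list genes had the higher ratio in liver and 6 in muscle (median 0.93 log2), and 15 of 20 muscle-list genes had it in muscle and 1 in liver (median -1.25 log2). With 0.1 FPKM added in place of 0.5, the medians over all libraries were 0.80 and -1.82 log2.

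Among the lists, muscle energy genes had the higher ratio in muscle for 10 of 11 (median -2.54 log2), and drug metabolism genes had it in liver for 9 of 10 (median 1.91 log2), led by Fmo5, a flavin monooxygenase, at 3.99 log2. Lists expressed in both tissues were mixed. The ratio was higher in muscle for 17 of 19 tricarboxylic acid cycle genes (median -1.22 log2) and 23 of 29 respiratory chain genes (median -0.59 log2), and higher in liver for 23 of 31 endoplasmic reticulum genes (median 0.70 log2). In the tricarboxylic acid list exons differed by a median of -1.48 log2 and introns by -0.62 log2. In fatty acid oxidation the exonic and intronic medians were 0.57 and 0.70 log2, so exons leaned to liver, yet the ratio was higher in muscle for 10 and in liver for 2 of 17 genes. Ribosomal protein genes were higher in liver by medians of 0.23 log2 in exons and 0.76 log2 in introns, and their ratio was higher in muscle for 14 and in liver for 4 of 27.

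**Figure D5:**
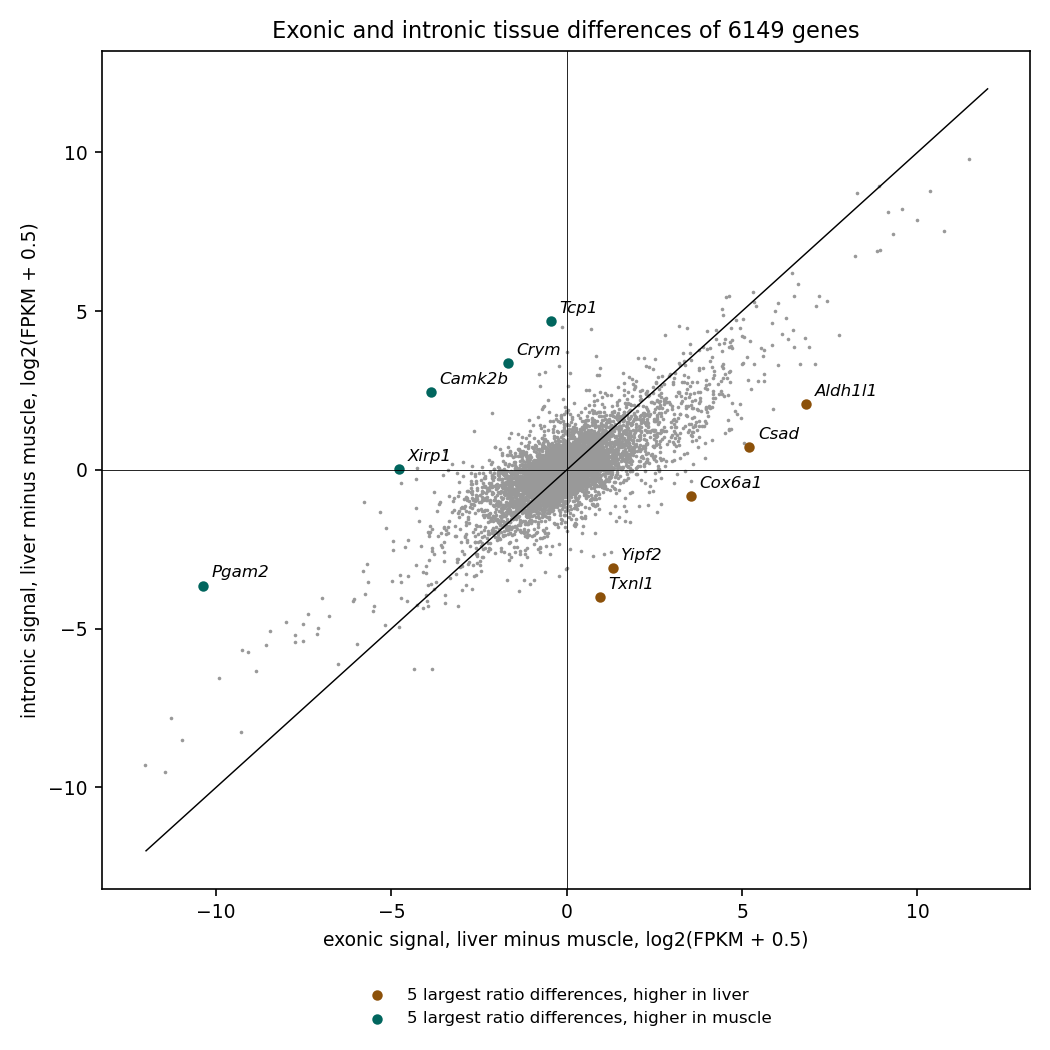
Liver minus muscle difference in introns (vertical axis) against that in exons (horizontal axis), in log2(FPKM + 0.5), for 6149 genes tested in both tables and as whole genes. Coloured, named points are the 5 genes with the largest ratio difference toward each tissue, and the diagonal marks equal differences. Genes far from 0 on the exonic axis mostly lie nearer to 0 on the intronic axis, which a choice by the exonic axis favours.

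In 6 of the 10 genes with the largest ratio differences, exons and introns differed between tissues in opposite directions: Txnl1, Yipf2, Cox6a1, Camk2b, Tcp1 and Crym. Toward muscle, the largest was that of Pgam2 (chr11:5801640-5803733), the muscle phosphoglycerate mutase, at -6.71 ± 0.18 log2, with exons at 0.161 to 3.72 FPKM in liver and 1976 to 3739 in muscle and introns at 1.82 to 37.1 and 121.2 to 366.9. Tcp1 (chr17:12915701-12925067), a chaperonin subunit, was at -5.11 ± 0.085 log2. Its exons ran from 56.0 to 90.6 FPKM in liver and from 97.7 to 112 in muscle (-0.45 ± 0.034 log2), and its introns ran from 152 to 268.1 FPKM in liver and from 5.70 to 9.17 in muscle. Tcp1 overlaps Acat3 on the opposite strand, and Acat3, a thiolase, was at 69.7 ± 13.3 FPKM in liver and 0.0781 ± 0.0456 in muscle. The libraries do not mark strand, so reads of overlapping genes cannot be told apart.

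Other large ratio differences had close neighbours as well. Crym, a thyroid hormone binding protein (-5.01 ± 0.12 log2), had introns of 6.35 to 24.8 FPKM in liver against exons of 0.548 to 1.87, and lies 794 bases from Anks4b, which was at 38.9 ± 13.3 FPKM in liver and 0.0251 ± 0.0453 in muscle. Camk2b, a calmodulin-dependent kinase (-6.29 ± 0.17 log2), had introns of 3.06 to 91.3 FPKM in liver and 2.18 to 4.13 in muscle, and lies 1864 bases from Ykt6, which was at 28.2 and 25.7 FPKM. Xirp1, an actin-binding protein of the cell junction (-4.78 ± 0.15 log2), had nearly equal introns (0.02 log2) and overlaps Cx3cr1. Toward liver, Yipf2 (4.42 ± 0.13 log2) overlaps Carm1, which was at 6.45 ± 0.822 FPKM in liver and 23.4 ± 4.14 in muscle. Aldh1l1, a folate enzyme (4.76 ± 0.13 log2), lies 4522 bases from Slc41a3, which was at 0.535 ± 0.271 and 33.5 ± 4.53 FPKM. Txnl1 (4.98 ± 0.061 log2) overlaps Wdr7, which was at 3.71 ± 0.442 and 6.03 ± 0.705 FPKM, while Txnl1 introns averaged 2.86 FPKM in liver and 51.8 in muscle. Csad (4.50 ± 0.18 log2), an enzyme of taurine synthesis, overlaps Zfp740, which was at 7.43 ± 0.808 and 8.93 ± 0.887 FPKM. Pgam2 lies 678 bases from Dbnl, which was at 10.7 ± 1.67 and 4.49 ± 0.594 FPKM. Cox6a1 (4.39 ± 0.13 log2), the liver form of the oxidase subunit, overlaps no other gene and lies 2073 bases from Triap1 (14.1 and 14.9 FPKM) and 4464 from Gatc (11.3 and 17.8 FPKM), with exons of 324.5 to 473.6 FPKM in liver and 23.5 to 51.1 in muscle and introns of 5.67 to 25.4 and 14.9 to 55.5. Overlap with another gene was found for 6 of these 10 genes, for 53.4% of the 298 genes with a ratio difference of at least 4-fold and for 53% of all 5956 tested genes with a position. The neighbouring genes were named after their values were seen, and their part in the ratios was not tested.

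The tissue difference changed with time of day for 4457 of 12304 genes (36.2%, limma F test of tissue by time). This count rests largely on ZT0: without that time in both tissues it was 1483 of 12243 genes, and without any other time it was between 3822 and 4769. The core clock, the feedback loop of transcription factors that drives daily rhythms, passed in 16 of 19 genes (all but Hlf, Cry2 and Nfil3). On average over the times, 11 of the 19 were higher in muscle and 5 in liver, against 50.3% and 42.1% of all genes tested. The split was 9 to 6 after median-of-ratios scaling, 12 to 4 after quantile normalisation and 14 to 4 after scaling to the same summed FPKM, so it depends on the scale. Tissue-only genes passed in 265 of 480 cases (55.2%), which is no result, because they were chosen for low values at some of these times.

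Several clock genes covered a wider range over the 6 times in liver than in muscle. Nr1d1, the repressor REV-ERB alpha, ran in liver from a mean of 0.538 ± 0.141 FPKM at ZT20 to 29.9 ± 4.04 at ZT8, a ratio of 55.5, and in muscle from 11 ± 1.15 at ZT16 to 72.6 ± 10.7 at ZT4, a ratio of 6.60 (SD, n = 3 per time). It was lower in liver at all 6 times, by 0.78 log2 at ZT8 and by 3.90 log2 at ZT0. Its partner Nr1d2 ran over a ratio of 29.6 in liver and 2.01 in muscle. Dbp, an output factor under direct clock control, had a ratio of 171.9 in liver and 15.6 in muscle, with its highest mean at ZT8 in both tissues (85.4 ± 13.2 and 72.5 ± 8.91 FPKM). Tef, a relative of Dbp, had ratios of 6.10 and 1.73. Arntl, encoding BMAL1, was highest at ZT0 in both tissues, at 12.1 ± 1.10 FPKM in liver and 15 ± 1.06 in muscle, with ratios of 35.2 and 8.36. Bhlhe41, a clock repressor also known as DEC2, had ratios of 24.3 and 1.76, and the largest mean tissue difference of the list, at 7.59 to 15.5 FPKM in muscle and 0.0528 to 1.76 in liver (-3.82 ± 0.051 log2). Ratios between the highest and the lowest of 6 means are a description and were not tested.

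Others did not. Hlf, the third factor of the Dbp family, was higher in liver by 0.96 to 1.19 log2 at each of the 6 times, and its tissue by time test did not pass (adjusted p = 0.95). Cry2 did not pass either (adjusted p = 0.43), with ratios of 1.73 in liver and 1.84 in muscle. On average over the times, Hlf had the largest difference toward liver in the list (1.08 ± 0.065 log2).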

How the data were processed

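TRIzol-extracted RNA of fed mouse liver and gastrocnemius was turned into TruSeq RNA v2 libraries, a kit that keeps no strand, according to the labels' protocols. The authors deposited FPKM values, normalised to length and depth, in 3 tables. The whole-gene table holds 20561 genes, and 19433 genes have exonic and intronic values. That unit is read from the values, since no label used here states it. The submitters' processing notes name mm10 and CASAVA 1.8.2, while aligner, counter and annotation are not stated in any source used here. Each table is taken as scaled to its own total, so exonic to intronic ratios are relative. Read depth was estimated from the lowest values above 0 of genes with a single annotated transcript, and no count test was run on FPKM.

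Libraries were grouped by the tissue, feeding state and time in their labels, and columns were matched by name. Values were analysed as log2(FPKM + 0.5) with limma 3.58.1 in R 4.3.3 (empirical Bayes with a trend) on 12 group means. The contrast was the mean of 6 liver means minus the mean of 6 muscle means, and an F test gave tissue by time. A gene entered when 3 or more fed libraries reached 1 FPKM. Ratios needed this in each tissue and in both tables, and were centred on the library median. Benjamini-Hochberg adjustment ran over every gene of a table, with a threshold of 0.05. The fit was tested on simulated data. Library composition was compared by permutation (SciPy 1.17.1). Gene positions are 1-based on mm10.

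The members, gene lists (26 by role, 14 of cell types) and 31 isozyme pairs were chosen with earlier results of these data known. Named genes were the 10 largest differences each way, up to 4 per list and 1 against its direction, all isozyme pairs, the 10 largest shares per tissue, the 5 most abundant near-equal genes, the 5 largest ratio and intronic differences each way, the 5 smallest tissue by time p and the 5 highest tissue-only genes per tissue. Further clock and list members, Ass1, Myh1, Myh2, Myh7, Rpl3l, Acat3, Anks4b and other neighbours were named after their values were seen. Alternatives tried were the added constant, filters, scalings, the reference libraries for traces, each library left out, each time left out, no time term, ratios without centring and a replicate block. Fasted libraries were not used here, and the values of some genes are not reported here.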

Additional observations from a re-analysis of the deposited data

Results flagged for a closer look

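The tissue difference changed with time most clearly for Pygm, the muscle glycogen phosphorylase (limma tissue by time test, adjusted p = 4.38e-22), Myoz1 (1.60e-21), a Z-disc protein, Mybpc2 (7.17e-21), a fast myosin binding protein, Fgg (7.62e-20), the fibrinogen gamma chain, and Serpina1b (1.61e-19), a protease inhibitor. Each of these genes was far higher in its own tissue, and its level in the other tissue differed between times. Pygm was at 0.263 to 0.444 FPKM in liver of ZT0 and ZT4 and at 9.37 to 12.9 FPKM in the other liver libraries, while it stayed between 2393 and 3030 FPKM in muscle. Myoz1 was at 0 to 0.0833 and at 9.28 to 12.5 FPKM in the same liver libraries, and Mybpc2 at 0.00914 to 0.0397 and at 5.84 to 8.26 FPKM. Serpina1b was at 0 to 0.168 FPKM in muscle of ZT16 and ZT20 and at 10.4 to 20.9 FPKM in the other muscle libraries. Myoz1, Mybpc2 and Fgg are among the tissue-only genes, for which the low values were part of the choice. The part of the traces in these calls was not tested.

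Among clock genes whose tissue difference changed with time were Nr1d2 (adjusted p = 1.77e-12), Nr1d1 (1.69e-11), Tef (1.06e-10) and Dbp (2.46e-09). Nr1d2 was lower in liver at all 6 times, by 3.93 log2 at ZT0 and by 0.67 log2 at ZT8. Tef was lower in liver at all 6 times, by 2.47 log2 at ZT0 and by 0.67 log2 at ZT8. Dbp was lower in liver at ZT0 (-2.36 log2) and differed by 0.23 log2 at ZT8.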

How the results depend on the processing

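Leaving out each library in turn gave 5159 to 5211 genes higher in liver and 6123 to 6215 higher in muscle for whole genes, 4618 to 4670 and 6394 to 6486 for exons, 3772 to 3819 and 4387 to 4459 for introns and 2184 to 2223 and 2474 to 2519 for the ratio, 3862 to 4848 genes for tissue by time, and differences of -565.4 to -513.5 genes at 1 FPKM and -7.08 to -6.73 percentage points for the top 10. Counts that moved over 1.5 times were those of introns when 1 FPKM was asked of 3 libraries of each tissue (2359 and 2752), muscle introns with no filter (7053), the ratio with no filter (7269 and 5778) or in the reference libraries (1450 and 1638) and tissue by time without ZT0 (1483); filters change the genes that enter by construction, the reference libraries are 12 of 36 at other times with 5352 genes tested, and for these and ZT0 the cause was not tested. Signs reversed under quantile normalisation or equal summed FPKM for Cox7a2 (-0.52, -0.22), Eef2 (-0.57, -0.04), Eng (-0.02, -0.21), Rplp1 (-0.65, -0.06) and Uqcrq (-0.77, -0.26, and -0.01 without ZT0), for Psmb1 under quantile normalisation (-0.01), for Atp2a2 in the reference libraries (0.01) and for Xirp1 introns (-0.18, -0.24, and -0.09 to 0.17 over single libraries left out). The ratio difference of Apoa1 was 0.31 with 0.1 FPKM added and did not pass. Pairing was checked over 10 pairs of libraries with the same time and number. Correlations of deviations ran from -0.293 to 0.212, 2 over 0.1. Low correlations between different tissues cannot exclude a shared animal, so whether the numbers pair libraries was not settled. With the replicate block on those pairs, counts were 4832 and 5901 for whole genes, 4331 and 6233 for exons, 3266 and 4093 for introns and 1897 and 2186 for the ratio; without it the same libraries gave 4854 and 5925 for whole genes. Leaving out single times and fitting the paired libraries without a block were chosen after seeing the data. The depth is an estimate, so no counting intervals are given for low values.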
